A study of Mus musculus with 2 samples.

Results

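The 10 genes described here, Rgs1, Rgs2, Rgs3, Rgs10, Rgs12, Rgs13, Rgs14, Rgs16, Rgs18 and Rgs19, encode regulators of G protein signalling (RGS proteins). They were chosen from the RGS family with their levels and differences on these same 2 arrays in view, and were found as the probes whose gene name in the array annotation was 1 of these 10, which gave 18 of 55659 probes and 10 of 34788 gene names. The arrays carried total RNA of mast cells grown from bone marrow of C57BL/6 mice, and 1 array was given to each group. The cells of 1 array were transfected with 200 pmol of an siRNA directed at GATA1, a DNA-binding factor of the mast cell, megakaryocyte, erythroid and eosinophil lineages, and those of the other with 200 pmol of a control siRNA. Both cultures had spent 2 weeks in 10 ng/mL interleukin 3 (IL-3) and then 2 weeks in IL-3 with 10 ng/mL stem cell factor, the growth factors of mast cells. Each array held pooled RNA of 2 animals, so the spread between animals was not measured, no difference has a replicate check and no p-value is given. The part of the transcript that the GATA1 siRNA targets, the age and sex of the animals and the time between transfection and RNA extraction are not given in the sources used here.

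Receptors with 7 membrane spans activate heterotrimeric G proteins by loading the alpha subunit with GTP. RGS proteins share a domain, the RGS box, that speeds the hydrolysis of this GTP and so shortens the signal. Mast cells carry such receptors for adenosine, complement fragments, chemokines, prostaglandins and sphingosine 1-phosphate, whose signals add to or restrain the release of granules through the IgE receptor. The family is divided by sequence. Rgs1, Rgs2, Rgs3, Rgs13, Rgs16 and Rgs18 belong to the R4 subfamily of mostly small proteins, Rgs10, Rgs12 and Rgs14 to the R12 subfamily, and Rgs19 to the RZ subfamily.

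A level is a probe's processed signal divided by the 75th percentile of all probes on its array, which was 340.0 scanner units on the GATA1 siRNA array and 303.2 on the control siRNA array. A difference is the log2 level with GATA1 siRNA minus the log2 level with control siRNA. A probe counted as measured where the scanner software called it well above background on both arrays, and no spot was saturated. The 2 arrays measured 28736 probes of 20410 genes, and the difference of all measured genes had a median of 0.01 and an SD of 0.29. Gata1 itself had a level of 11.6 with GATA1 siRNA, against 54.1 with control siRNA, a difference of -2.23 with a software error of 0.20 (probe at chrX:7536392-7536451, minus strand, mm9). All 8 listed mast cell markers were measured, with a summed level of 2221 on the GATA1 siRNA array and 2415 on the control siRNA array. Of these, 3 were above 0 and 5 below. The largest fall in level, picked after the values were seen, was that of Tpsb2, at 254 with GATA1 siRNA against 371 with control siRNA. The 10 measured of 12 neutrophil markers were all higher with GATA1 siRNA, with a median difference of 0.59 and a summed level of 141 with GATA1 siRNA against 95.6 with control siRNA. The 8 measured of 11 macrophage and monocyte markers on the array had 6 genes above 0 and 2 below, a median difference of 0.36 and a summed level of 21.9 with GATA1 siRNA against 13.9 with control siRNA, and C1qa and C1qc were among those not measured. All 7 eosinophil markers on the array were lower with GATA1 siRNA, with a summed level of 25.1 against 33.8 with control siRNA. In RNA of whole cultures, fewer cells of a type and less RNA per cell cannot be told apart, and the part of these markers in the RGS differences was not tested.

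The probes are 60 bases long and each carries a single gene name in the array annotation. Because RGS genes share a domain, the pair of probes of different members that match best is printed here to show how far the probes differ. Both lie in the stretch that encodes the RGS box, in exons of the transcripts named by the array annotation. The Rgs2 probe lies at chr1:145848830-145848889 on the minus strand and the Rgs3 probe at chr4:62363208-62363267 on the plus strand, both in mm9. Capitals mark the 35 bases that are identical when the Rgs3 probe is shifted by 1 base.
Rgs2 probe: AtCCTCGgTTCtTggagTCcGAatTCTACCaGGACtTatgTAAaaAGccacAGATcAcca
Rgs3 probe: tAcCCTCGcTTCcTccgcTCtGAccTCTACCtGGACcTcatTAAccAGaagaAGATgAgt
Among the 140 pairs of probes of different members, the median of the best ungapped match was 20 bases, and this pair had the highest. The differences at these 2 probes were 0.49 for Rgs2 and 0.01 for Rgs3.

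GATA factors bind WGATAR, a motif spelled out here as 4 hexamers, the sequence AGATAA and the sequence TGATAA and each of these with G as the last base. The 250 bases before each RefSeq transcript start (build GRCm38.p6, a later build than the mm9 of the probes) were searched for them on both strands. Windows were found for 7 of the 10 genes, 11 windows in all, and 3 of the 11 held at least 1 hexamer, beside 8718 of all 32851 windows (26.5%). The window of Rgs13 held 4, a number reached by 69 of all windows (0.210%). None of the 4 overlapped another. They started 221, 35 and 25 bases before the transcript start on the strand of the gene, with TGATAA at the outer 2 and the sequence AGATAA at the inner 1 of these, and TGATAA read on the opposite strand lay 10 bases before it. The window is shown beside those of Rgs16 and Rgs2, the genes with the largest measured differences, which held none. Capitals mark the hexamers, each window is written along the strand of its gene, and the windows cover chr1:144177373-144177622 (minus strand) for Rgs13, chr1:153740103-153740352 (plus strand) for Rgs16 and chr1:144004150-144004399 (minus strand) for Rgs2.
Rgs13 window: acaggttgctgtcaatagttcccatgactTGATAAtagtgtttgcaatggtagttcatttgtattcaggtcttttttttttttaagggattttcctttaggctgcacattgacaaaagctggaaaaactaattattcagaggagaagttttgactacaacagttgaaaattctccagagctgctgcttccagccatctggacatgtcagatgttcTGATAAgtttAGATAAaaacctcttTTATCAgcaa
Rgs16 window: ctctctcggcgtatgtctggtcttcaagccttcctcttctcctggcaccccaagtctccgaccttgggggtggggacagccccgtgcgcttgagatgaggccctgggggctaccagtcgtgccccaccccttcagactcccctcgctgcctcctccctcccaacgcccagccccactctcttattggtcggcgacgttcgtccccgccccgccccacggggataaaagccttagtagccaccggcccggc
Rgs2 window: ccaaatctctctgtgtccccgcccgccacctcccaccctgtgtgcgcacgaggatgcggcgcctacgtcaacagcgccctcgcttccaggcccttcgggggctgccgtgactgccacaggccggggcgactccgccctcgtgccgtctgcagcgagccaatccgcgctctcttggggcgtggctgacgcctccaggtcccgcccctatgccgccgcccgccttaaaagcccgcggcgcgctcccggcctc
The share of G and C was 36% in the window of Rgs13, 66.4% in that of Rgs16 and 72.4% in that of Rgs2. A single hexamer was found in 1 of the 2 windows of Rgs3 and in 1 of the 2 windows of Rgs12. A match describes the letters of a window and says nothing of binding, which was not measured.

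Of the 18 RGS probes, 15 were measured. They belong to 9 genes, since the single Rgs13 probe passed background only with control siRNA. Of the 9 genes, 8 had a difference above 0, beside 52.7% of all measured genes, and the exception was Rgs18. A single gene, Rgs16, was at least 2-fold higher with GATA1 siRNA, where 0.294% of all measured genes were, and 0 of the 9 were at least 2-fold lower, where 0.608% of all genes were. At 1.5-fold, 0 of the 9 genes were lower (2.76% of all genes). By probes, 14 of 15 were above 0 (52.2% of all measured probes), 1 was at least 2-fold higher (0.338%) and 2 were at least 1.5-fold higher (1.92%), namely those of Rgs16 and 1 of the 2 of Rgs2. None of the 15 was at least 1.5-fold lower (3.19%). The median over the 9 genes was 0.22, and 6 of the 9 lay between 0.1 and 0.3. The shares over all genes and probes take no account of level, and bright probes tended to lie above 0. At the level of the brightest Rgs12 probe, 60.9% of 780 probes had a difference higher than its 0.04. With loess scaling, which removes the trend with level, 13 of the 15 probes were above 0 and the median over the 9 genes was 0.19. These genes were chosen with earlier results of the same arrays known, so the counts are a description and carry no test. The error that the scanner software gives for each difference was 0.20 to 0.28 for these probes, and 8 of the 15 differences were larger than their own error. This count depends on the processing. With quantile or loess scaling, Rgs1, Rgs10, Rgs14 and 1 Rgs19 probe had differences of 0.15 to 0.20, each below its error of 0.204. Those of Rgs16, both Rgs2 probes and 1 Rgs3 probe stayed above their errors under both. With normexp background correction, the dim Rgs2 probe was 0.18, below its error of 0.28. With the authors' normalized table, 1 Rgs12 probe at 0.23 and the other Rgs19 probes at 0.24 were above their errors. The software error covers the scan of 1 array and not the cultures or animals. At bright RGS probes it was nearly the same share of the signal each time, and so came to 0.20 at all of them. There it acts as a fixed size and not as a spread measured for that probe. On the same arrays, 245 measured probes of other genes are printed 10 times, and the SD of the difference among repeated spots had a median of 0.16 in the dimmest group of probes and 0.04 in the brightest.

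**Figure D1:**
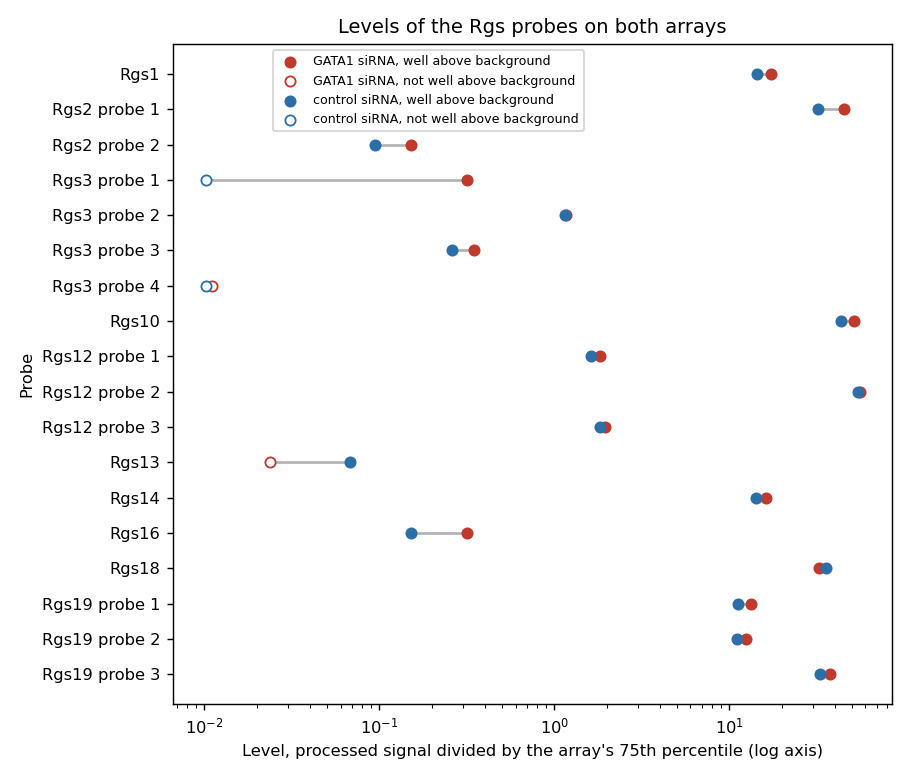
Level of each of the 18 RGS probes on both arrays, as processed signal divided by the array's 75th percentile on a log axis, with GATA1 siRNA in red, control siRNA in blue and open points for values not well above background. Probes of a gene are numbered by their start in the transcript. The 2 points lie furthest apart at 1 Rgs3 probe, followed by Rgs13 and Rgs16.

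Rgs16 had the largest measured difference of the family. In lymphocytes its product restrains signals through Gi and Gq proteins, among them those of chemokine receptors. Its probe, at chr1:155592244-155592303 on the plus strand in mm9, had a level of 0.318 with GATA1 siRNA, against 0.152 with control siRNA. The difference was 1.07 with a software error of 0.23, or 2.10-fold. With normexp background correction it was 0.50, under 2-fold, and a minimum signal of 50 on both arrays leaves the probe out, so the 2-fold call ends under both. In scanner units these were dim signals of 108 with GATA1 siRNA and 46.0 with control siRNA, both well above background. Dim probes scatter more. The 3574 measured probes within 0.5 log2 units of its level had an SD of differences of 0.40, and 0.532% of them had a higher difference than Rgs16. None of the 12 spots around it on the array differed 4-fold between the arrays. With 1 probe and 1 array a group, neither a second probe nor a second culture bears on this value. Over the 2 arrays, the 3 named genes closest in level to Rgs16 among 12762 were Il18 at a distance of 0.05 log2 units (difference 1.09), Ms4a4b at 0.12 (0.92) and F2rl2, which encodes a thrombin receptor of the protease-activated family, at 0.15 (0.90).

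Rgs2 had the next largest difference. Its product prefers Gq among the alpha subunits and is induced in many cell types by receptor signals. The probe in the coding sequence printed above had a level of 45.0 with GATA1 siRNA, against 32.1 with control siRNA, a difference of 0.49 with an error of 0.20. Of the 1012 probes at a similar level, which had an SD of 0.17, 1.09% had a higher difference. The probe closer to the 3′ end of the transcript, at chr1:145847227-145847286, had a level of 0.152 with GATA1 siRNA, against 0.0947 with control siRNA, a difference of 0.68 with an error of 0.28. This was a dim probe with signals of 51.6 and 28.7 scanner units on the GATA1 siRNA and control siRNA arrays, and 2.83% of the 3857 probes at a similar level, with an SD of 0.40, had a higher difference. Both probes were thus higher with GATA1 siRNA by more than their software error, and their mean was 0.58 with an SD between probes of 0.14.

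Rgs1 and Rgs18, also of the R4 subfamily, are known from blood cells. Rgs1 limits the response of lymphocytes to chemokines. Its probe (chr1:146091962-146092021, minus strand) had a level of 17.3 with GATA1 siRNA and 14.5 with control siRNA, a difference of 0.26 with an error of 0.20, and 7.54% of the 1723 probes at its level had a higher one. Rgs18 is best known from megakaryocytes and platelets. Its probe (chr1:146600137-146600196, minus strand) had a level of 32.6 with GATA1 siRNA and 35.7 with control siRNA, a difference of -0.13, which is smaller than its error of 0.20. It was the only measured RGS probe below 0, and 90.1% of the 1095 probes at its level had a higher difference. Beside it, 3 of the 7 measured megakaryocyte and platelet markers were above 0, with a median of -0.05 and a summed level of 49.5 with GATA1 siRNA against 58.6 with control siRNA. Without Gp1ba, left out after its value was seen, the other 6 summed to 37.1 with GATA1 siRNA against 33.4 with control siRNA. The part of these markers in the Rgs18 value was not tested.

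Rgs13 is the member with a known brake function in mast cells, since in mice its product limits IgE-driven degranulation. Its single probe (chr1:145985824-145985883, minus strand) had a signal of 8.09 scanner units with GATA1 siRNA, which was not well above background, against 20.7 with control siRNA, which was. Set against the lowest signal well above background on the GATA1 siRNA array, 13.3 scanner units, the bound for Rgs13 was 1.74-fold lower with GATA1 siRNA. This bound leaves out the error of either signal. The software errors of the signals were 2.85 scanner units with GATA1 siRNA and 3.78 with control siRNA. None of the 12 spots around this probe differed 4-fold. A probe this close to background gives a bound and no difference. The window with 4 GATA hexamers printed above belongs to this gene, and any part of it in this value was not tested.

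Rgs3, whose long forms carry a PDZ domain, had probes that differed among themselves. The probe in the RGS box had a level of 1.16 with GATA1 siRNA and 1.15 with control siRNA, a difference of 0.01. The probe closer to the 3′ end (chr4:62363993-62364052) had a level of 0.349 with GATA1 siRNA and 0.260 with control siRNA, a difference of 0.43 with an error of 0.22. Their mean was 0.22 with an SD of 0.29, so these 2 probes differed from each other by more than the mean. A further probe, for an Ensembl transcript (chr4:62358833-62358892), had a signal of 107.1 scanner units with GATA1 siRNA against 3.08 with control siRNA, not well above background. Its bound, which leaves out the error of either signal, was 6.30-fold higher with GATA1 siRNA. Of the 12 spots around it, 3 were also at least 4-fold brighter on the GATA1 siRNA array, with signals of 126, 118 and 68.9 scanner units there against 14.6, 3.08 and 12.6 on the control siRNA array. A spot with at least 2 of its 12 nearest spots differing 4-fold between the arrays is called marked here. The spot of this Rgs3 probe was marked, as were 1.80% of all spots. The probe of transcript variant 1 (chr4:62320777-62320836) was not well above background on either array.

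**Figure D2:**
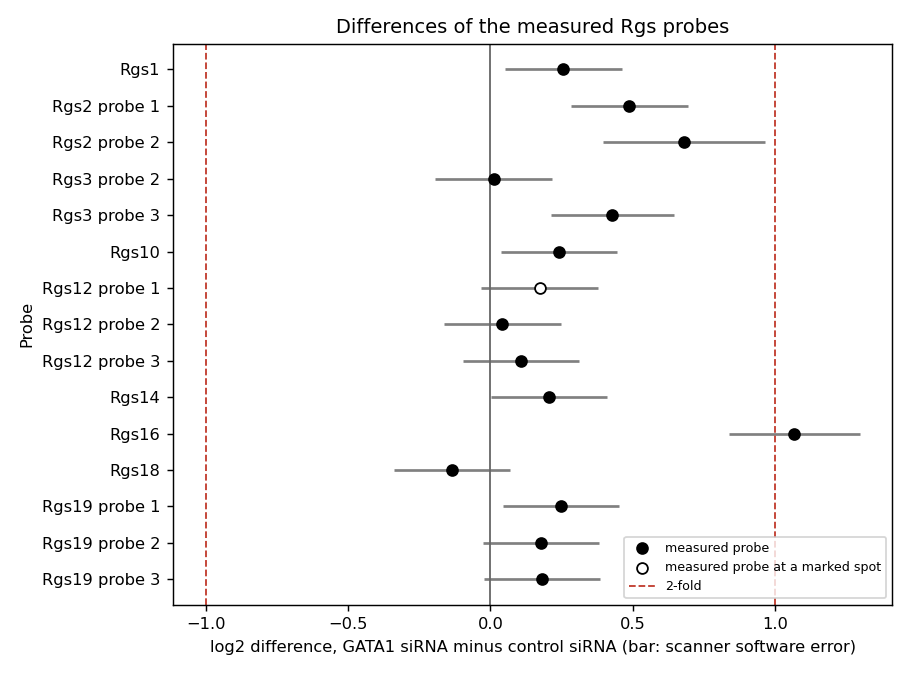
Log2 difference, GATA1 siRNA minus control siRNA, of each measured RGS probe, with the scanner software's error as bars. Rgs16 lies at 1.07 and the Rgs2 probes at 0.49 and 0.68, while Rgs18 at -0.13 is the only point below 0.

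The R12 genes had differences between 0.11 and 0.24. Rgs10, a short protein that acts on Gi alpha subunits, had a level of 51.4 with GATA1 siRNA and 43.5 with control siRNA (chr7:135517256-135517315, minus strand), a difference of 0.24 with an error of 0.20. Of the 882 probes at its level, with an SD of 0.16, 9.18% had a higher difference. Rgs14, which also carries a GoLoco motif that binds Gi alpha subunits in the GDP state, had a level of 16.3 with GATA1 siRNA and 14.1 with control siRNA (chr13:55485762-55485821, plus strand), a difference of 0.21. That is as large as its error of 0.20, and 13.7% of the 1761 probes at its level were higher. Rgs12, the largest of this subfamily, with PDZ and phosphotyrosine-binding domains, had 3 measured probes on chromosome 5 with differences of 0.17, 0.04 and 0.11, all within their software error. Its brightest probe (chr5:35376032-35376091) had a level of 55.7 with GATA1 siRNA and 54.1 with control siRNA. Of the 780 probes at its level, 60.9% had a higher difference. The first of the 3 lies at a marked spot, with 4 of its 12 neighbours at least 4-fold brighter on the GATA1 siRNA array. The gene's mean was 0.11 with an SD between probes of 0.07.

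Rgs19, of the RZ subfamily, was found as a partner of Gi alpha subunits and has a cysteine string that can carry palmitate. Its 3 probes on chromosome 2 had levels of 13.3, 12.5 and 37.5 with GATA1 siRNA, against 11.2, 11.0 and 33.1 with control siRNA. The differences of 0.25, 0.18 and 0.18 lay close together, with a mean of 0.20 and an SD of 0.04, which is smaller than the median SD of 0.10 between probes over the 5661 genes with several measured probes. Probes of 1 gene share the same RNA and array and are not replicates of the condition.

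**Figure D3:**
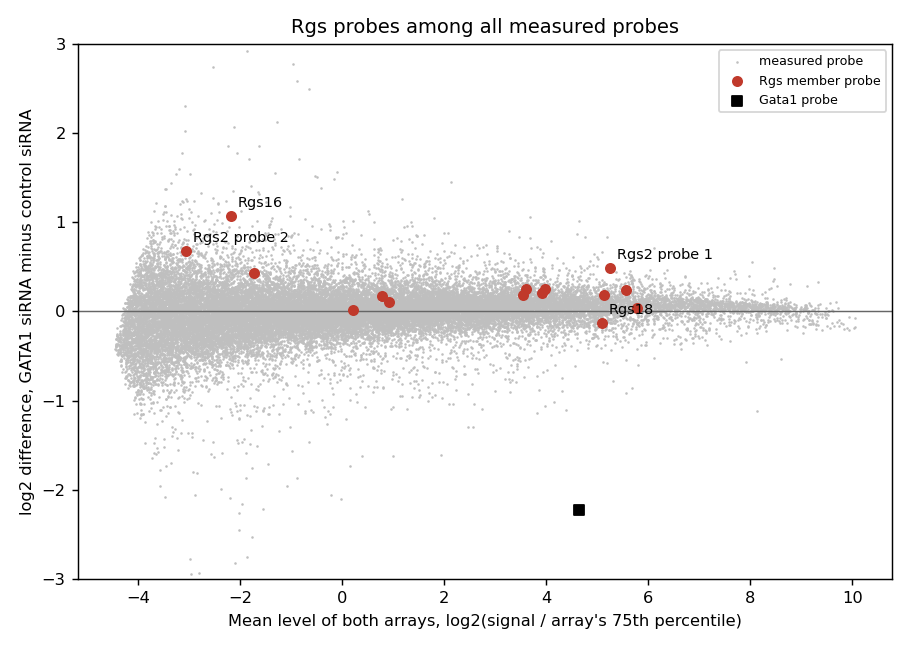
Log2 difference, GATA1 siRNA minus control siRNA, against mean log2 level for all measured probes (grey) with the RGS probes in colour, where 15 measured probes lie beyond the vertical axis. The scatter of the grey points narrows towards high levels, with Rgs2 probe 1 at 0.49 and Rgs18 at -0.13 labelled among the bright probes and Rgs16 at 1.07 among the dim ones.

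Several of these genes are neighbours. On mouse chromosome 1 (mm9), the probes of Rgs2, Rgs13, Rgs1 and Rgs18 lie in this order on the minus strand within 753 kb, with that of Rgs21 between Rgs1 and Rgs18. Their values did not go one way, since both Rgs2 probes and Rgs1 were above 0, Rgs18 was below 0, Rgs13 was measured on the control siRNA array only and Rgs21 was not well above background on either array. The stretch from 145453391 to 146600196 was chosen after the values were seen. It also holds 7 measured probes of 5 other genes (Cdc73, Glrx2, Trove2, Uchl5 and an unnamed transcript). All 7 lie on the same side, at lower coordinates than Rgs2, and none lies between the RGS genes. Their differences ranged from -0.21 to 0.04. The 3 measured RGS probes with values above 0 in the stretch lay above that range, and Rgs18 lay within it. Rgs16 lies on the same chromosome, outside this stretch.

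The array also holds 20 probes of 11 other RGS genes, of which 5 genes were measured. Their median was -0.26, with 2 of 5 above 0 and none past 2-fold. Rgs9, of the R7 subfamily, which works as a pair with the G beta 5 subunit, was lower with GATA1 siRNA at all 4 probes, with differences of -0.16, -0.29, -0.31 and -0.26. The first of these was within its error of 0.21. The last 2 come from probes that cover nearly the same bases (chr11:109086675-109086734 and chr11:109086669-109086728, mm9), so they are not separate readings of the transcript. The other R7 genes measured were Rgs7 at -0.34, within its error of 0.35, and Rgs11 at -0.39 with an error of 0.22, both dim. Rgs20, of the same subfamily as Rgs19, had a level of 8.09 on both arrays and a difference of 0.00. Rgs8, of the R4 subfamily, had a level of 0.129 with GATA1 siRNA against 0.0846 with control siRNA, a difference of 0.61 with an error of 0.29. Rgs4, Rgs5, Rgs6, Rgs17, Rgs21 and Rgs22 were not measured.

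The lists of G protein subunits and effectors hold the partners of the RGS proteins. The 12 measured genes of G alpha subunits had a median of 0.02, with 7 above 0 and none past 2-fold, and this median was below 0 under 4 alternatives, from -0.022 to -0.0055. The alpha subunit of the largest difference was Gnai1, dim, with a level of 0.194 with GATA1 siRNA against 0.347 with control siRNA and a difference of -0.84. Among the other substrates of RGS proteins, chosen after their values were seen, Gnai2 had a difference of 0.19, Gnai3 of -0.23 and Gnaq of 0.44. The 13 genes of G beta and gamma subunits had a median of 0.07 (-0.040 with no filter on dim probes), and the largest difference was that of Gnb3, at 0.61 and dim. The 14 genes of adenylyl cyclases and other effectors had a median of 0.13, with 10 above 0, and Adcy9 was highest at 0.69, with a dim level of 0.148 with GATA1 siRNA against 0.0917 with control siRNA. None of the measured beta and gamma subunits or effectors was past 2-fold.

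Receptor kinases with arrestins, and other regulators of G alpha subunits, formed 2 further lists. The 7 measured genes of receptor kinases and arrestins, which uncouple receptors from G proteins, had a median of -0.14, with 2 above 0. Grk5, a receptor kinase, was the lowest, with a level of 1.64 with GATA1 siRNA against 2.66 with control siRNA and a difference of -0.70. The 7 other regulators of G alpha subunits had a median of -0.11, and Gpsm1, whose GoLoco motifs bind Gi alpha subunits, was the lowest at -0.67. With the brightest probe of each gene the median of these regulators was 0.033, above 0, and that of the kinases and arrestins was -0.0080.

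Of 31 listed G protein-coupled receptors of mast cells and related blood cells, 30 are on the array and 26 were measured, with 17 above 0 (52.7% of all measured genes) and a median of 0.11. Both receptors past 2-fold were lower with GATA1 siRNA, where 0.608% of all measured genes were. The C5a receptor named Gpr77 on the array, now C5ar2, which does not couple to G proteins as C5ar1 does, had a level of 1.58 with GATA1 siRNA against 4.84 with control siRNA, a difference of -1.61. Hrh2, a histamine receptor, had a level of 0.0818 with GATA1 siRNA against 0.166 with control siRNA, a difference of -1.02 with an error of 0.27. Its signals were dim, 27.8 scanner units with GATA1 siRNA and 50.4 with control siRNA, and a minimum signal of 50 on both arrays leaves it out. At the 1.5-fold size, 5 receptors were higher with GATA1 siRNA, beside 1.83% of all measured genes, and these are named after their values were seen. They were Ptafr (0.96), S1pr3 (0.81), Ccr2 (0.72), Ptger4 (0.71) and S1pr1 (0.59), receptors for platelet-activating factor, sphingosine 1-phosphate, a monocyte chemokine and prostaglandin E2. Ccr2 is also a receptor of monocytes, whose markers are given above, and the part of those cells in its value was not tested.

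**Figure D4:**
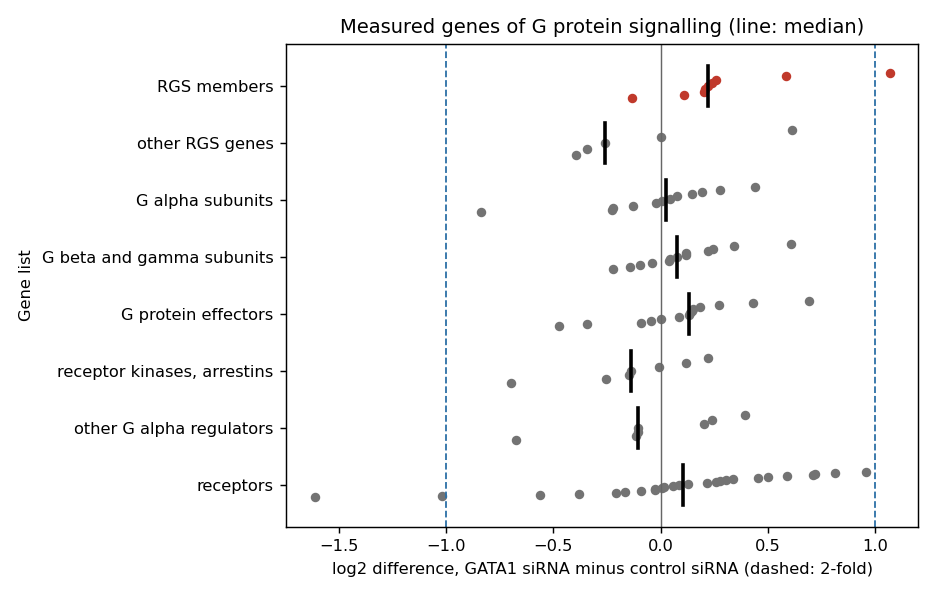
Log2 difference, GATA1 siRNA minus control siRNA, of each measured gene of the RGS family and of the lists of G proteins, effectors, other regulators and receptors, with a bar at each list's median. The median of the RGS genes described here is 0.22 and that of the G alpha subunits 0.02, and the lowest point is Gpr77 at -1.61.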

How the data were processed

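The deposited spot values are intensity in scanner units, made by the authors with Agilent Feature Extraction 10.7.3.1, per the file headers, which also record background subtraction and detrending across each array. The deposited normalized intensity table equals each array's processed signal divided by its own median and served as an alternative scaling.

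Control spots and the 234 spots called outliers on either array were left out, repeated spots were averaged as log2 values, and each array was divided by its 75th percentile over probes. A gene is the mean of its measured probes. With 1 array a group there was no test. A size of 2-fold replaced it, with 1.5-fold beside it, and a probe above background on 1 array only gives a bound against the lowest signal above background on the other. Such a bound leaves out the software error of either signal. A spot was marked where at least 2 of its 12 nearest spots differed 4-fold between arrays, and the number of neighbours was set after values were seen.

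The members and lists were chosen with earlier results of these data known. Named were all members, Gata1, each list's genes past 2-fold or else its largest, and the 3 named genes nearest to the most different member. Names kept the array's symbols, and 17 of 18 RGS probes had an accession in RefSeq (GRCm38.p6), all with the same symbol. Promoter windows are those of RefSeq, with the 50 bases after each start left out. Alternatives were normexp background correction (offset 50, limma 3.58.1 in R 4.3.3), scaling by median, quantile, loess (span 0.4), all spots or the authors' table, no filter or a minimum signal of 50, outliers kept, marked spots left out, 1.5-fold, and the brightest probe. Scaling and counting were tested on simulated data. Python 3.11.15, numpy 2.4.6, pandas 2.3.3 and matplotlib 3.10.9 were used.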

Additional observations from a re-analysis of the deposited data

How the results depend on the processing

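No paired analysis was possible because each siRNA is 1 array. The count of RGS genes at least 2-fold higher with GATA1 siRNA, 1 (Rgs16), was 0 with normexp background correction, 0 where a signal of at least 50 was asked on both arrays, which leaves Rgs16 out, and 2 with no filter on dim probes, where 1 was also at least 2-fold lower. With normexp, whose offset of 50 shrinks the differences of dim probes by construction, Rgs16 was 0.50 and the probe near the 3′ end of Rgs2 was 0.18. Over the settings that gave a value, Rgs16 ranged from 0.50 to 1.13, the coding probe of Rgs2 from 0.43 to 0.55 and Rgs18 from -0.19 to -0.07, below 0 in 12 of 12 settings. Of 161 values of single probes, 2 moved by more than their error and 3 changed sign near 0, those of Rgs12 (-0.013 with quantiles and -0.011 with loess, at the probe with 0.04) and Rgs3 (-0.0010 with the percentile over all spots, at the probe with 0.01). The median of the other RGS genes was -0.15 with normexp. The median of the G beta and gamma genes was -0.040 with no filter, that of the kinases and arrestins was -0.0080 with a minimum signal of 50 and also with the brightest probe per gene, and that of the other G alpha regulators was 0.033 with the brightest probe. The median of the G alpha genes, 0.02, was -0.018 with normexp, -0.022 with no filter, -0.016 with a minimum signal of 50 and -0.0055 with the brightest probe. Of 144 results other than single probes, 9 moved beyond the limits set and 6 changed sign.

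Across the array, 60 genes passed 2-fold upwards and 124 downwards. These counts were 17 and 32 with normexp, 728 and 1128 with no filter, 24 and 61 with a minimum signal of 50, 37 higher with marked spots left out, and 374 and 564 at the 1.5-fold size. With no filter the median difference over all probes was -0.11, against 0.01. Marking by 6 neighbours, chosen after seeing the data, gave 41 and 100.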

Other observations

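Among the markers of other cells, Cd68 (1.07) and Ms4a7 (1.09), of macrophages, were at least 2-fold higher with GATA1 siRNA, while Cx3cr1 (-0.94) and C1qb (-0.10) of the same list were lower, both named after their values were seen. Gp1ba (-1.02), a platelet glycoprotein, was at least 2-fold lower. The largest differences of the other marker lists were those of Mcpt4 (-0.88) for mast cells, Ltf (0.79) for neutrophils, Epx (-0.85) for eosinophils, Mcpt8 (0.29) for basophils, Cd79a (-0.38) for B cells and Lck (-0.17) for T cells. Basophil markers were above 0 at 3 of 3 genes, with a summed level of 216 with GATA1 siRNA against 185 with control siRNA. Of the 6 B cell markers 2 were measured, both below 0, and of the 6 T cell markers 3 were measured, all below 0.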
